A study of Mus musculus with 4 samples.

Results

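The beta cell disallowed genes examined here were Ldha, Slc16a1, Oat, Acot7, Pdgfra, Igfbp4, Cxcl12, Smad3, Maf and Tgm2, 10 genes that mature beta cells normally keep silent. They were taken by name, and every array probe whose transcript maps to one of them was kept. This gave 15 probes among 56605 gene probes on the array, and 10 of the 22916 genes that could be named. The data were 4 single-color Agilent arrays of islet cells, made from 4 littermates of the strain C57BL/6, labeled as male and 60 weeks old. Islets were isolated with collagenase, handpicked and dispersed into single cells in serum-containing medium, and the cells were then given a peptide at 10 μM for 24 h outside the animal. The control arrays (scrambled replicates 1 and 2) received a peptide with a scrambled sequence, and the treated arrays (MOTS-c replicates 2 and 3) received MOTS-c, a peptide encoded in mitochondrial DNA. The labels name no other treatment or allele for either group. The arrays hold RNA of all islet cell types together, so no signal below can be assigned to beta cells.

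Most tissues express the disallowed genes. A beta cell that makes lactate dehydrogenase A and the monocarboxylate transporter MCT1 can divert pyruvate to lactate and can take up circulating pyruvate and lactate, and silencing of both genes is thought to keep insulin release tied to glucose. The remaining members act in amino acid and acyl-CoA metabolism, in growth factor and chemokine signaling, in transcription and in protein crosslinking, and several of them are abundant in the fibroblasts, vessels and white blood cells of a whole islet.

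Most of these genes gave a clear signal in the mixed islet cells. Of the 10 genes, 9 had probes well above background on all 4 arrays, with a probe of Ldha at 730 to 1084 times and one of Oat at 548 to 850 times the local background of its spot, and Igfbp4 alone did not rise above background. No member passed an adjusted p of 0.05 between the treatments. The platelet-derived growth factor receptor Pdgfra stood at 0.485 times its scrambled level with MOTS-c, the only member past an unadjusted p of 0.05 and 1.5-fold. Ldha, Slc16a1, Oat and Acot7, the members in metabolism, all had differences under 1.5-fold.

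Some facts of the arrays bear on every value. Between 61.6% and 65.0% of the gene spots per array were well above background and none was saturated. MOTS-c replicate 3 stood apart, with a score of 51.0 on the first principal component (52.1% of the variance) against -11.6, -34.4 and -5.03 for the other arrays. The labels give male animals, but Xist was at 23.7 to 33.5 times background on 4 of 4 arrays and 7 probes of Y-linked genes passed that mark in 0 of 28 probe-array pairs. The islet label was borne out by Ins1 and Ins2 (insulin), Gcg (glucagon) and Sst (somatostatin), each far above background on every array, whereas the beta cell marker Ucn3 was not well above background on any. With 2 arrays per group, the lowest two-sided p of an exact permutation test is 0.333, so tests rest on limma across 35087 probes with Benjamini-Hochberg adjustment.

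Against that background, 0% of all tested probes reached an adjusted p under 0.05 (smallest 0.474), while 2755 had an unadjusted p under 0.05. A looser call, an unadjusted limma p under 0.05 with at least a 1.5-fold difference, was met by 3.53% of all tested probes (387 higher and 852 lower with MOTS-c) and by 1 of the 13 tested member probes (7.69%), a share that rests on a single probe. The arrays of one group lay entirely above or below those of the other for 38.0% of all tested probes. They did so for 7 of the 13 member probes, 3 higher and 4 lower. The median log2 fold change, always MOTS-c minus scrambled, was -0.15 over the member probes and 0.01 over all probes. Its value for the members without MOTS-c replicate 3 was 0.04, and 10 of the 13 member probes had their lowest value on that array, against 33.3% of all tested probes.

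**Figure D1:**
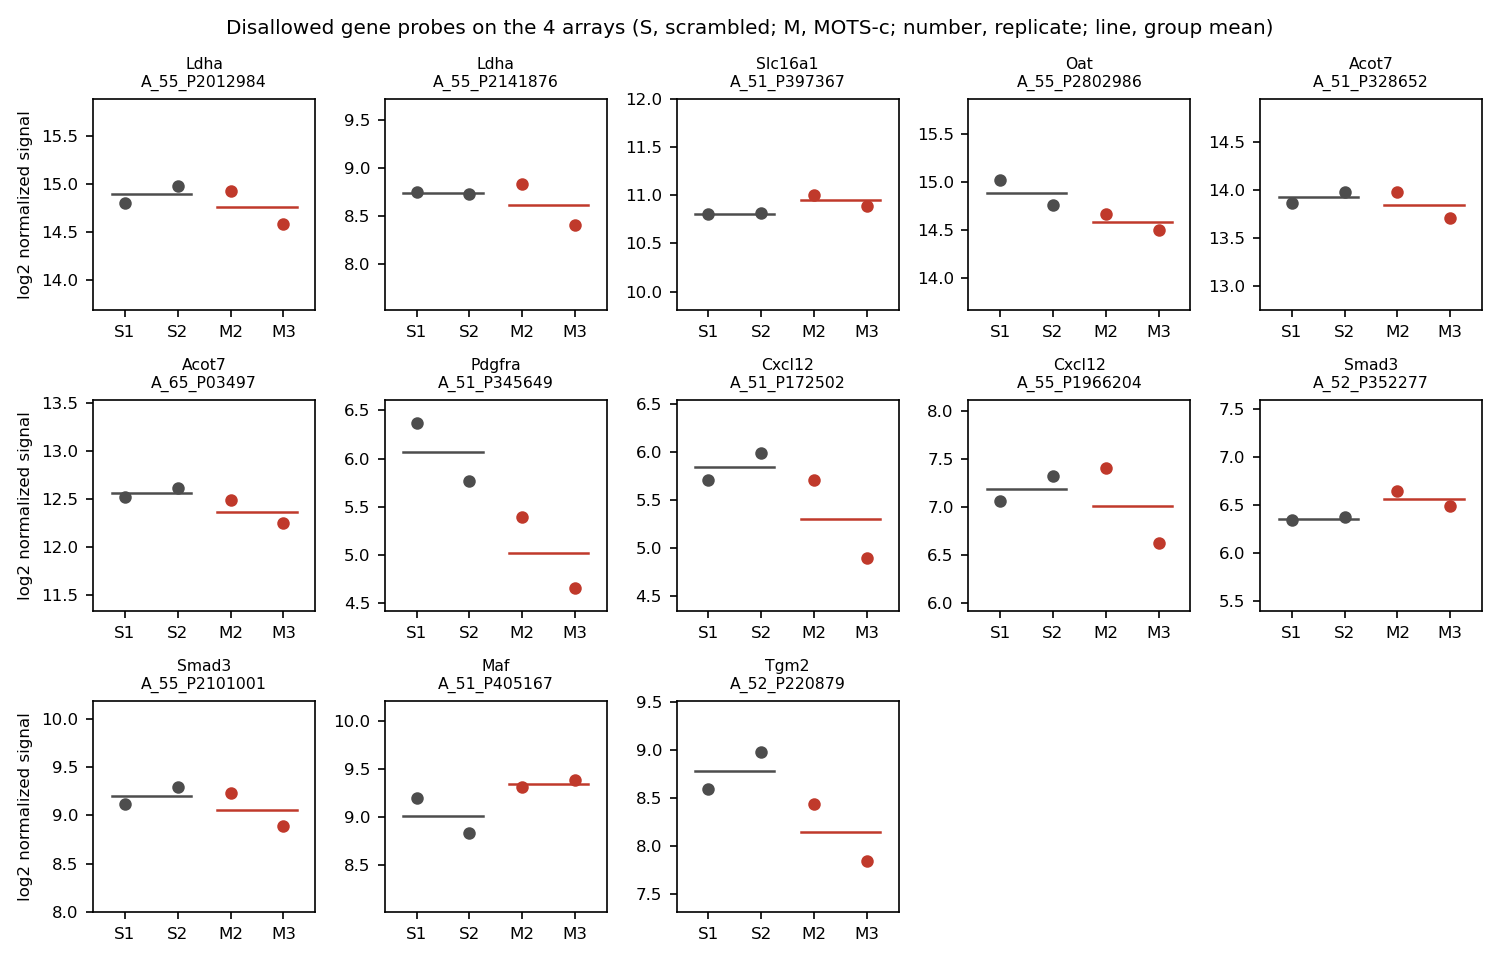
The log2 normalized signal (vertical axes, all of the same span) of the 13 tested probes of the disallowed genes is plotted for scrambled replicates 1 and 2 (gray) and MOTS-c replicates 2 and 3 (red), with lines at the group means. Pdgfra, Tgm2, Oat and the Acot7 probe A_65_P03497 lie lower on both MOTS-c arrays. Maf, Slc16a1 and the Smad3 probe A_52_P352277 lie higher, while the groups overlap on the other Acot7 and Smad3 probes. MOTS-c replicate 3 is the lowest point for 10 of the 13 probes.

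Ldha makes the lactate dehydrogenase subunit that turns pyruvate into lactate. Its probe A_55_P2012984 had log2 signals of 14.80 and 14.98 with scrambled and 14.93 and 14.59 with MOTS-c. The ranges overlapped, with MOTS-c replicate 2 between the control arrays and replicate 3 below them. A second Ldha probe, A_55_P2141876, had 8.75 and 8.73 with scrambled and 8.83 and 8.40 with MOTS-c, again with overlap and with the lowest value on MOTS-c replicate 3. The difference was -0.13 (SE 0.17, adjusted p = 0.892 in limma) for the first probe and -0.12 (SE 0.18, adjusted p = 0.910 in limma) for the second. The 95% intervals ran from -0.59 to 0.32 and from -0.60 to 0.36 on the log2 scale, so both included a value 1.5-fold lower as well as higher values. Both signs turned to positive values, 0.04 and 0.09, without MOTS-c replicate 3. The probes lay at 730 to 1084 times and 10.8 to 15.5 times their local background.

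Slc16a1 encodes MCT1, which carries lactate and pyruvate across the plasma membrane. Its probe A_51_P397367 gave 10.80 and 10.81 with scrambled and 11.004 and 10.89 with MOTS-c, 48.3 to 58.7 times background. Both MOTS-c arrays were above both scrambled arrays, by a small margin. The log2 fold change of 0.14 (95% interval -0.18 to 0.46, adjusted p = 0.831 in limma) was close to its standard error of 0.12 and ran from 0.08 to 0.20 over all alternative settings. Thus the enzyme and the transporter of the lactate pair had point estimates of opposite sign, and neither passed the test. The opposition was lost without MOTS-c replicate 3, where the Ldha probes were at 0.04 and 0.09 and Slc16a1 at 0.20.

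The start regions of these paired genes are shown because they share letters that the choice of genes did not use. Promoter windows from RefSeq (build GRCm38.p6, 250 bases before to 50 after the gene start) were at hand for 8 of the 10 members, 9 windows in all, with 2 starts for Ldha. The palindrome CACGTG, an E-box that reads the same on both strands, was in 2 of the 9 windows, those of Slc16a1 and of one Ldha start, against 7.15% of 32851 windows. Its occurrences are in capitals below, each with 20 bases on either side, read 5′ to 3′ on the plus strand, which is the coding strand of both genes. The printed stretches lie at chr7:46845639-46845684 and chr7:46845736-46845781 for Ldha, both in the same window, and chr3:104638444-104638489 for Slc16a1. The first motif base lies 145, 48 and 200 bases before the gene start.
Ldha, far match: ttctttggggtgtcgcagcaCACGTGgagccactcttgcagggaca
Ldha, near match: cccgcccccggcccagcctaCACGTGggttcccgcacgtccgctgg
Slc16a1: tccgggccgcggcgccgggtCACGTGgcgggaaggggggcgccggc
A match is a description of letters and not a binding site, and these arrays measured no binding. Other motifs searched on both strands were the GC box GGGCGG in 6 of the 9 member windows (35.7% of all windows), CCAAT in 1 (37.4%) and TATAAA in 1 (13.6%). The Ldha window with CACGTG and the Slc16a1 window also held the GC box, so CACGTG was not the only motif that they shared.

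The genes that handle pyruvate and lactate around this pair were read as a list of 22, of which 20 had tested probes. Of the 27 tested probes 0 met the looser call in either direction, and their log2 fold changes ran from -0.24 to 0.36 with a median of 0.07. The largest belonged to Pdk1, a kinase that switches off pyruvate dehydrogenase, whose probe A_55_P2826334 gave 9.44 and 9.55 with scrambled against 9.96 and 9.75 with MOTS-c. That difference was 0.36 (SE 0.14, unadjusted p = 0.054, adjusted p = 0.647 in limma), with 2 further Pdk1 probes at 0.23 and 0.26.

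Oat encodes ornithine aminotransferase, a mitochondrial enzyme that links ornithine to glutamate and proline. Its probe A_55_P2802986 gave log2 signals of 15.02 and 14.76 with scrambled and 14.66 and 14.50 with MOTS-c. The treated arrays were both lower than the controls, but the gap between the nearest arrays was smaller than the distance between the scrambled replicates. The difference of -0.31 (SE 0.16, 95% interval -0.71 to 0.10, adjusted p = 0.717 in limma) kept its sign in every alternative, from -0.44 to -0.18. Of 14 tested probes of 12 ornithine, proline and arginine enzymes, 1 met the looser call, against 3.53% of all tested probes. That probe was of the mitochondrial arginase Arg2. Arg2 had 6.31 and 6.69 with scrambled and 7.18 and 7.12 with MOTS-c, a log2 fold change of 0.65 (SE 0.17, adjusted p = 0.538 in limma), which was 0.46 with normexp and 0.46 without scrambled replicate 1 and lost the call there and with the methods' t-test.

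Acot7 encodes an acyl-CoA thioesterase, which splits long-chain acyl-CoA into fatty acid and free coenzyme A. Probe A_51_P328652 gave 13.87 and 13.98 with scrambled against 13.99 and 13.72 with MOTS-c, and the groups overlapped. For a different Acot7 transcript entry, probe A_65_P03497 gave 12.51 and 12.61 against 12.48 and 12.24, and both MOTS-c arrays were lower. Their log2 fold changes were -0.08 (SE 0.15, adjusted p = 0.934 in limma) and -0.20 (SE 0.14, adjusted p = 0.789 in limma). Among 12 tested probes of other acyl-CoA thioesterases 0 met the looser call, with Acot11 farthest from zero at -0.70 (SE 0.32, adjusted p = 0.693 in limma).

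**Figure D2:**
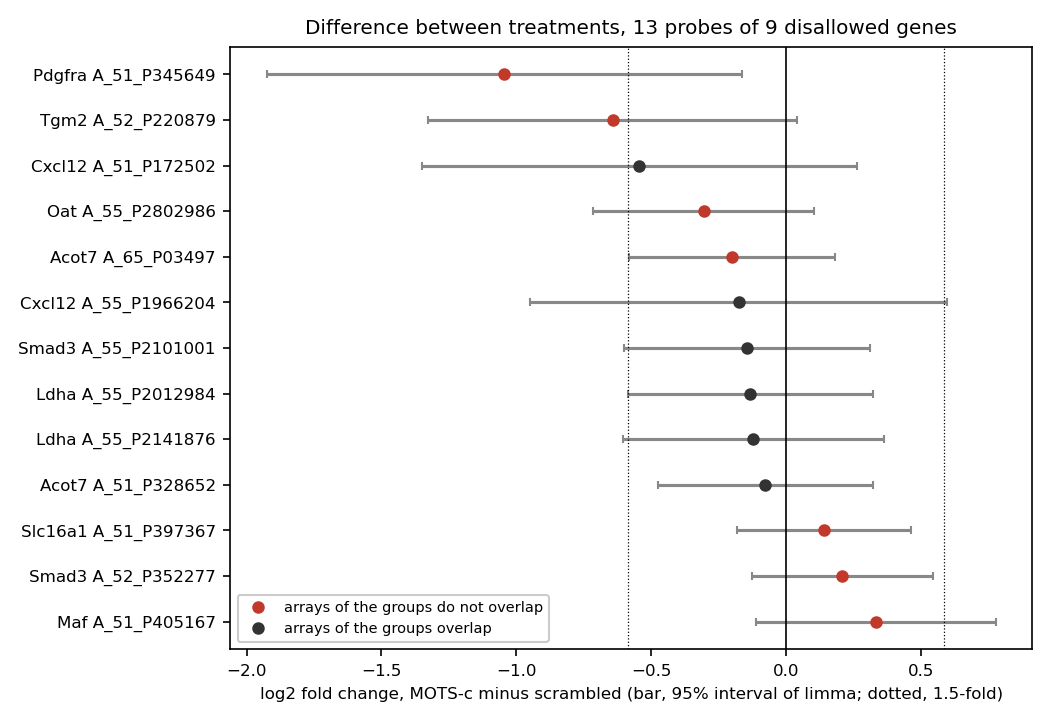
Log2 fold changes (MOTS-c minus scrambled) of the 13 tested probes are shown as points with the 95% intervals of limma, and dotted lines mark 1.5-fold. The interval of Pdgfra, from -1.93 to -0.17, does not include 0, and those of the other 12 probes do.

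Pdgfra encodes the alpha receptor for platelet-derived growth factor and marks fibroblast-like cells of many tissues. Its probe A_51_P345649 had log2 signals of 6.37 and 5.76 with scrambled and 5.39 and 4.65 with MOTS-c. Both MOTS-c arrays were lower than both scrambled arrays, and all 4 values were spread out, with 0.61 between the control arrays and 0.74 between the treated ones. The means were 6.07 ± 0.43 and 5.02 ± 0.52 (SD, n = 2 each), and the log2 fold change was -1.05 (SE 0.33, unadjusted p = 0.029, adjusted p = 0.567 in limma). The spot was dim, at 1.74 to 3.46 times its local background. The difference was -0.40 with the normexp background correction, -0.68 without MOTS-c replicate 3, -0.73 without scrambled replicate 1 and -1.36 and -1.40 without scrambled replicate 2 and MOTS-c replicate 2, and the looser call was lost without MOTS-c replicate 3, without scrambled replicate 1, with normexp, with the methods' t-test and with no filter on dim probes.

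In mixed cells, fewer Pdgfra-bearing cells and less Pdgfra RNA per cell cannot be told apart. Of 13 other markers of mesenchymal cells, 7 were not well above background on any array, namely the collagen genes Col1a1 and Col3a1, the matrix genes Dcn and Lum and the pericyte genes Pdgfrb, Rgs5 and Cspg4. The 6 that were tested had a median log2 fold change of -0.22, from -0.60 for Col6a1 to 0.35 for Sparc, and 0 met the looser call. The summed normalized signal of the whole marker list was 9746 and 9170 with scrambled and 8188 and 8217 with MOTS-c, lower on both treated arrays. Acta2 and Col6a3 made up 95.1% to 96.3% of that sum on every array, and the other 11 markers summed to 358 and 440 with scrambled and 399 and 322 with MOTS-c, with overlap. Their part in the Pdgfra value was not tested. Of the ligands and the other receptors, 5 probes of 4 genes were tested and 0 met the looser call, with Pdgfb at -0.37 and both probes of the ligand Pdgfa at 0.13 and 0.21.

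**Figure D3:**
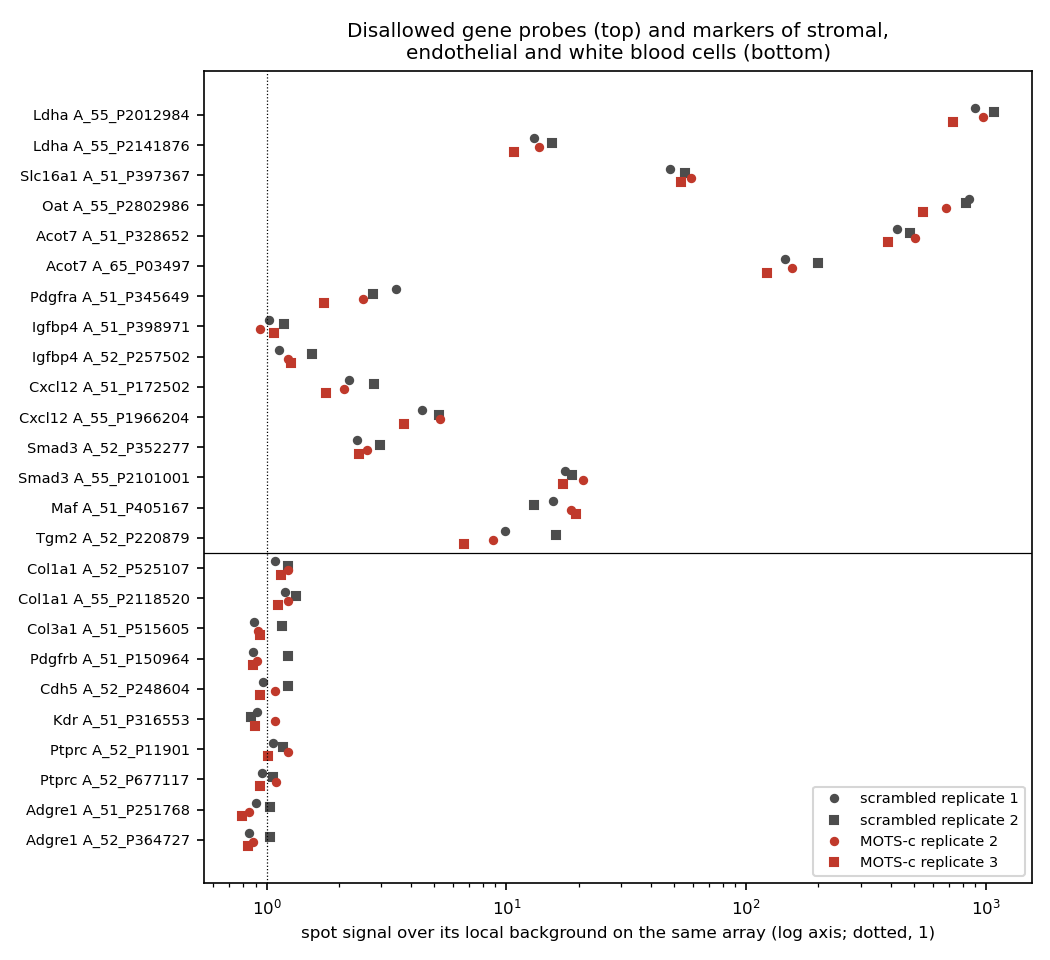
The median spot signal divided by its local background on the same array (log axis) is plotted for all 15 probes of the disallowed genes and, under the line, for markers of mesenchymal cells (Col1a1, Col3a1, Pdgfrb), endothelium (Cdh5, Kdr) and white blood cells (Ptprc, Adgre1). None of the plotted markers was well above background on any array. Other markers of the same lists, not plotted, were bright, with probes of Acta2 at 137 to 161, Plvap at 38.1 to 58.3 and Csf1r at 68.1 to 127 times background. Both Igfbp4 probes sit among the plotted markers near 1, Pdgfra lies between 1.74 and 3.46, and the Ldha, Oat and Acot7 probes reach from 10.8 to 1084.

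Igfbp4 encodes a secreted binding protein that holds back insulin-like growth factors until the protease Pappa cleaves it. Its probes A_51_P398971 and A_52_P257502 failed to rise well above background in 8 of 8 probe-array pairs, at 0.938 to 1.55 times the local background, so no difference was tested. Other genes of the insulin-like growth factor system were measured in 14 tested probes of 12 genes. Of these probes 2 were called higher and 2 lower by the looser rule, against 3.53% of all tested probes called in either direction. Both higher probes belonged to the receptor Igf1r, with 11.30 and 11.64 against 12.35 and 11.99 for probe A_55_P2736764 and 8.34 and 8.83 against 9.42 and 9.05 for probe A_51_P318365. Their log2 fold changes were 0.70 (SE 0.20, adjusted p = 0.543 in limma) and 0.65 (SE 0.23, adjusted p = 0.614 in limma), and the treated arrays were above both scrambled arrays for each probe. Both Igf1r calls were lost without scrambled replicate 1 (0.53 and 0.40), without MOTS-c replicate 2 (0.52 and 0.46) and with the methods' t-test, and that of A_51_P318365 with no filter. Pappa2, a protease of the same family as Pappa, gave 10.33 and 9.63 with scrambled against 8.99 and 9.07 with MOTS-c, a difference of -0.94 (SE 0.26, adjusted p = 0.539 in limma). For Pappa2 it was -0.59 without scrambled replicate 1, and the call was lost with no filter and the methods' t-test. Igfals, the carrier of circulating growth factor complexes, passed the filter only through the scrambled arrays, a selection that favors a lower value with MOTS-c. It was not well above background on either MOTS-c array and was at least 1.91-fold lower there on the processed signal (adjusted p = 0.474 in limma). That bound does not hold under normexp, where the difference of Igfals was -0.27 and the call was lost. The bound sets the scrambled mean against the lowest signal still called above background on each MOTS-c array, or the probe's own signal where higher.

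Cxcl12 encodes a chemokine that holds cells expressing its receptor Cxcr4 in place. The probe for one transcript entry, A_51_P172502, gave 5.71 and 5.99 with scrambled and 5.71 and 4.89 with MOTS-c, and the other, A_55_P1966204, gave 7.06 and 7.32 against 7.40 and 6.62. In each case MOTS-c replicate 3 was the lowest array and MOTS-c replicate 2 was not below both controls, so the groups overlapped. The differences were -0.54 (SE 0.31, adjusted p = 0.741 in limma) and -0.18 (SE 0.29, adjusted p = 0.922 in limma). They were -0.14 and 0.21 without MOTS-c replicate 3 and -0.95 and -0.56 without MOTS-c replicate 2. The treated arrays thus disagreed about Cxcl12, more than the treatments differed.

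The receptor side of this axis held 2 of the 6 tested probes past the looser call, which 3.53% of all tested probes met. Both were probes of Cxcr4 and both were lower. Probe A_52_P585124 gave 9.23 and 9.31 with scrambled against 8.47 and 7.78 with MOTS-c, and probe A_55_P2745744 gave 6.02 and 5.97 against 5.22 and 4.33. Every MOTS-c value of Cxcr4 was below every scrambled value on both probes, with MOTS-c replicate 3 lowest. The log2 fold changes were -1.15 (SE 0.26, adjusted p = 0.509 in limma) and -1.23 (SE 0.32, adjusted p = 0.534 in limma). The dimmer Cxcr4 probe, A_55_P2745744, was at -0.46 with normexp and -0.78 without MOTS-c replicate 3. Its call was lost with normexp and with no filter, and both were lost with the methods' t-test. Ackr3, the scavenging receptor for the same ligand, had -0.70 (SE 0.27, unadjusted p = 0.054, adjusted p = 0.647 in limma) and missed the call, while Dpp4, a protease that trims the chemokine, had -0.09 and 0.12. The summed signal of white blood cell markers, whose cells can bear Cxcr4, was 4827 and 6270 with scrambled and 5034 and 4290 with MOTS-c. Of these markers, Csf1r, C1qa, C1qb, Cd68 and Cd3e were well above background on all 4 arrays. Ptprc, Adgre1, Lyz2 and C1qc were not well above background on any array. The part of these cells in the Cxcr4 values was not tested.

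Smad3 encodes the signal carrier that TGF-β and activin receptors phosphorylate. Its probes disagreed in sign. Probe A_52_P352277 gave 6.35 and 6.38 with scrambled and 6.64 and 6.49 with MOTS-c, both higher, while probe A_55_P2101001 gave 9.12 and 9.30 against 9.23 and 8.89, with overlap. The log2 fold changes were 0.21 (SE 0.13, adjusted p = 0.757 in limma) and -0.15 (SE 0.17, adjusted p = 0.877 in limma), and the mean over both was 0.03. Of 26 tested probes of 16 other TGF-β and SMAD genes 0 met the looser call, and their median was 0.12. Smad6, an inhibitory member, was farthest from zero at 0.88, but its standard error of 0.56 reflected arrays from 3.32 to 5.35, near background.

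Maf encodes the large transcription factor c-MAF, a relative of the beta cell factor MafA. Its probe A_51_P405167 gave 9.20 and 8.83 with scrambled and 9.31 and 9.38 with MOTS-c. Both MOTS-c arrays were higher, and they lay closer together than the control arrays did. The difference of 0.33 (SE 0.17, 95% interval -0.11 to 0.78, adjusted p = 0.717 in limma) was the highest among the member probes and stayed between 0.15 and 0.51 in all alternatives. Of the related factors, Mafa had 11.91 and 11.92 with scrambled against 12.05 and 12.10 with MOTS-c, a difference of 0.16, and was not called. Maff, a small partner factor that lacks an activation domain, met the looser call. It had 10.64 and 10.77 against 10.34 and 9.70, a difference of -0.69 (SE 0.24, adjusted p = 0.608 in limma). The Maff call was lost without scrambled replicate 1, without scrambled replicate 2 and without MOTS-c replicate 3 (-0.37), and with no filter and the methods' t-test.

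Tgm2 encodes tissue transglutaminase, which crosslinks proteins. Probe A_52_P220879 gave 8.59 and 8.98 with scrambled and 8.44 and 7.85 with MOTS-c. Both treated arrays were lower, replicate 2 by little and replicate 3 by more. At a log2 fold change of -0.64 (SE 0.26, unadjusted p = 0.060, adjusted p = 0.662 in limma) it was past 1.5-fold and missed the looser call on p, with a 95% interval from -1.33 to 0.04. It met that call under the 75th percentile shift, normexp and a limma trend and without MOTS-c replicate 2, and was -0.35 without MOTS-c replicate 3. Of the other transglutaminases 4 of 8 genes could be tested and 0 met the call, with Tgm4 at -0.64 (SE 0.33, adjusted p = 0.717 in limma).

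A further 13 genes named elsewhere as low in beta cells served as a second look at the same class. Of their 14 tested probes from 10 genes, 3 were called, all higher, against 3.53% of all tested probes called in either direction. Rest and the Lmo4 probe A_55_P2018249 passed the filter only through the MOTS-c arrays, a selection that favors a higher value with MOTS-c. Neither was tested under the filter requiring 4 arrays, and the shared direction of the 3 calls is not a result about the class. With normexp, 0 of these 3 calls remained. Lmo4, a LIM-domain adaptor of transcription factors, had 5.11 and 5.13 with scrambled against 6.46 and 6.47 with MOTS-c on probe A_51_P394190, a log2 fold change of 1.34 (SE 0.12, adjusted p = 0.474 in limma) that was 0.58 with normexp. On that probe the replicates of Lmo4 were close in both groups and the groups lay far apart. Its other probe, A_55_P2018249, was not well above background on the scrambled arrays and was at least 1.48-fold higher with MOTS-c on the processed signal (adjusted p = 0.505 in limma), a bound that fails under normexp, where the log2 difference was 0.24. The call of that Lmo4 probe was also lost with the methods' t-test and without scrambled replicate 1. Rest, the repressor of neuronal genes, was likewise not well above background with scrambled and was at least 1.38-fold higher on the processed signal (adjusted p = 0.534 in limma), with all spots between 1.21 and 1.56 times background. For Rest too the bound fails under normexp, at a log2 difference of 0.24. Its call was also lost with no filter and the methods' t-test, and its log2 fold change was 0.68 without scrambled replicate 2. The brighter probe of Hk1, a hexokinase with high affinity for glucose, went the other way at -0.32 and was not called.

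**Figure D4:**
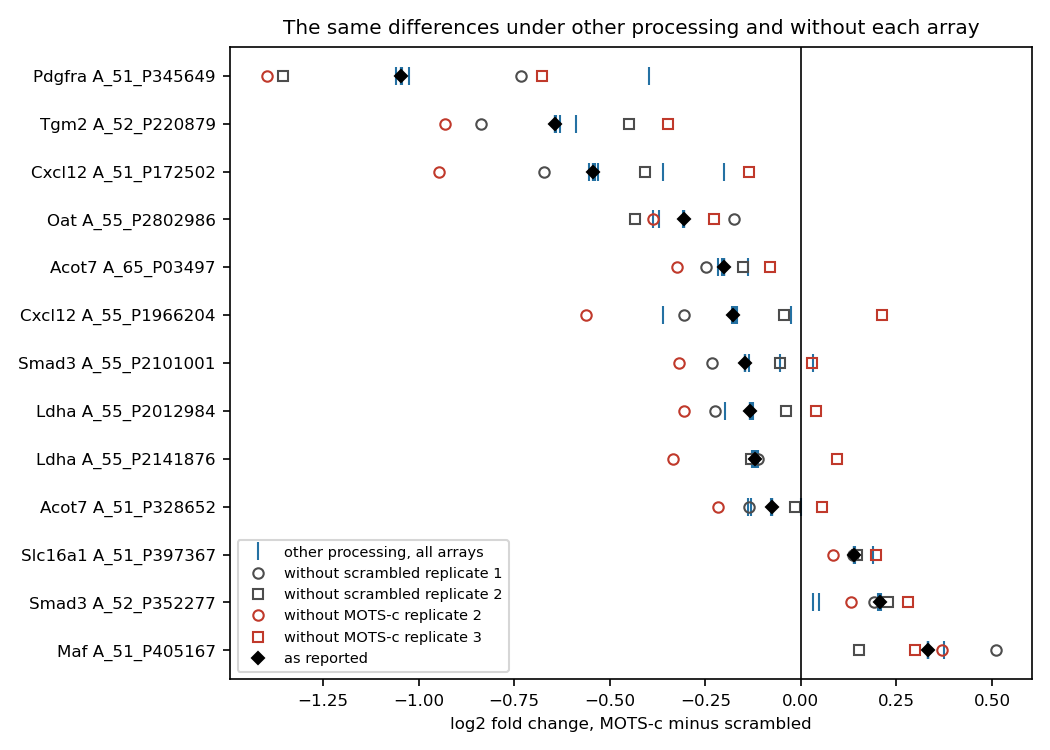
For each tested member probe the log2 fold change as reported (diamond) is set beside its values under other processing of all arrays (bars) and without each array in turn (open circles and squares). Pdgfra and Tgm2 stay below 0 and Maf stays above 0 throughout, while 5 of the 13 probes cross 0, every one of them at least when MOTS-c replicate 3 is left out.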

How the data were processed

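The authors labeled RNA with Cy3, scanned the arrays and read the spots with Feature Extraction. The deposited intensity values had been corrected for background on each array and not scaled between arrays. A second deposited table holds these intensities rounded, within a ratio of 0.995 to 1.005. The sources do not say which animal gave which array, so p-values measure the spread between these arrays.

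Here 3671 control spots on each array and 96 to 131 outlier spots were dropped, the deposited intensities were put on a log2 scale, and repeated spots of one probe were averaged. Those flagged well above background by the extraction software on 2 or more arrays were quantile normalized. This rule stands in for a flag of the study's methods that is not defined. limma (version 3.58.1, R 4.3.3) compared MOTS-c with scrambled, with Benjamini-Hochberg adjustment over 35087 probes, 2 residual and 2.64 prior degrees of freedom, and 95% intervals. Different probes of a gene were kept apart. RefSeq genes (GRCm38.p6) named 32994 probes. The array design uses another build, so probes have no coordinates here, and probe sequences were not used.

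The members and the companion and marker lists were chosen with earlier results of these data known. All probes of the 10 members are named, and of other lists each gene past the looser call or else the one with the largest difference, with the first 2 markers of each cell type. Pdgfa, Dpp4, Ackr3, Sparc, Hk1, Mafa, Gcg, the markers not above background and the other markers given without a call were named after their values were seen. Some genes of these lists are not reported here. The alternatives were a 75th percentile shift, normexp on median signals (offset 50), the rounded table, no filter, a filter requiring 4 arrays, the t-test of the methods, a limma trend, leaving out each array (with the filter applied to the remaining 3) and the mean over probes of a gene. All arrays were on 1 slide, so no slide block was run. The steps were tested on simulated data.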

Additional observations from a re-analysis of the deposited data

How the results depend on the processing

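Over the alternatives, 8 of the 13 member probes never changed sign and 5 did. Leaving out 1 array gave -0.31 to 0.039 and -0.33 to 0.095 for the Ldha probes A_55_P2012984 and A_55_P2141876, -0.22 to 0.056 for Acot7 A_51_P328652, -0.56 to 0.21 for Cxcl12 A_55_P1966204 and -0.32 to 0.028 for Smad3 A_55_P2101001, each positive only without MOTS-c replicate 3. Normexp gave 0.0011 for the same Acot7 probe, and the mean over both Smad3 probes was 0.031. Of the other genes, normexp turned Ppy (-0.0040) and Ins1 (2.26e-06), and quantile normalization set the Ins1 values by rank there too. Leaving out 1 array gave -0.052 to 0.66 for Ppy, -0.13 to 0.43 and -0.13 to 0.44 for the Cd68 probes and -0.89 to 0.11 for Krt7. The count of member probes past the looser call, 1 as reported, was 2 with the 75th percentile shift and with the limma trend, and 0 with no filter and with the t-test of the methods. Leaving out 1 array gave 0 to 3 members, 3 of them without MOTS-c replicate 2 (Pdgfra, Tgm2 and the Cxcl12 probe A_51_P172502) and 0 without MOTS-c replicate 3 or scrambled replicate 1. Over all probes the count of 1239 became 406 with normexp, 457 with that t-test and 1242 to 3070 without 1 array, the highest without MOTS-c replicate 2, of 34565 probes tested there. The members' median of -0.15 ranged from -0.32 to 0.039 without 1 array. The share of all calls that were higher, 31.2% as reported, was 18.5% with normexp. The t-test of the methods left 1 probe past an adjusted p of 0.05 and 2312 past that level unadjusted. Where 1 array was left out, the lone array of its group was assumed to vary like the other group. No paired analysis was possible because the groups share only 1 replicate number. The widest intervals among the members were those of Pdgfra, both Cxcl12 probes and Tgm2, and the number of arrays limits every comparison.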

Other observations

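The marker lists read beside the disallowed genes gave the following values. Of the beta cell markers, Ins1 had a difference of -0.04 and Ins2 of -0.05. For the brightest probes quantile normalization sets the values by rank, so these differences do not show whether insulin RNA changed. Ins1 had 18.13 on both scrambled arrays, and Ins2 had 18.54 on scrambled replicate 1 and both MOTS-c arrays. The Ins2 spots ran from 8378 to 12955 times background. The same limit applies to Sst, at 17.17 on scrambled replicate 1 and MOTS-c replicate 2. Slc2a2, the glucose transporter GLUT2, was lower on both MOTS-c arrays and met the looser call, with log2 signals of 5.23 and 5.26 with scrambled and 3.81 and 4.02 with MOTS-c. Its log2 fold change of -1.33 (SE 0.14, adjusted p = 0.474 in limma) was -0.39 with normexp, where the call was lost. The Slc2a2 spot was dim, at 1.31 to 2.30 times its local background, and was not well above background on MOTS-c replicate 2. Of the alpha cell list, Gcg was at 0.11 and Irx2 was called higher (0.68, adjusted p = 0.519 in limma), a call lost with normexp (0.14), with the methods' t-test and without scrambled replicate 2. Irx2 was dim too, at 1.66 to 1.89 times its local background. Of the delta and PP lists 0 probes were called, with Sst at -0.28, Hhex at 0.44 and Ppy at 0.32, and Pyy was not well above background.

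Outside the endocrine cells, the summed signal of acinar markers was 1213 and 1445 with scrambled against 890 and 632 with MOTS-c, with Cpa1 not tested. Ngfr of the Schwann cell list was called lower (-0.70, adjusted p = 0.571 in limma), and that call was lost without MOTS-c replicate 3 (-0.41), without either scrambled array, with normexp, with no filter and with the methods' t-test. Of the ductal list 0 probes were called (Krt7 at -0.39, Krt19 not well above background). The summed endothelial signal was 1995 and 2472 against 2344 and 1960, with 0 of 4 tested probes called, Pecam1 at 0.18, Vwf at -0.44 and Cdh5, Kdr, Tek, Tie1 and Emcn not well above background on any array. The white blood cell list summed to 4827 and 6270 against 5034 and 4290. C1qa was called lower (-0.67, adjusted p = 0.548 in limma), a call lost without scrambled replicate 1, without MOTS-c replicate 2 and with the methods' t-test. Cd68 was at 0.16 and 0.15 and Csf1r at -0.21 and -0.02, and Ptprc, Adgre1, Lyz2 and C1qc were not well above background on any array. The mesenchymal markers Col1a2 and Acta2 had differences of -0.30 and -0.14.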
